A study of Mus musculus with 9 samples.

Results

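The genes described here are 10 transcripts of the integrated stress response, Atf4, Ddit3, Atf3, Nupr1, Trib3, Chac1, Asns, Psat1, Sesn2 and Ddit4, out of 35896 genes with a transcript in the deposited tables. Of these, Nupr1 was chosen by its higher level under CK666 in these same libraries, so its values are given as a description without any test. The other 9 were taken as known members of the pathway, though with earlier results of these data known. All 10 passed the expression filter that left 14648 genes for testing. Poly-A RNA was sequenced from E14, an established mouse embryonic stem cell line, in 9 libraries that form 3 groups of 3. The first group, control with LIF2i, grew throughout in medium with the cytokine LIF, 1 µM of the MEK inhibitor PD0325901 and 1 µM of CHIR99021, which inhibits glycogen synthase kinase-3β. The second, control without LIF2i, was cultured for 72 h after these were removed. The third was cultured for 72 h without LIF2i and with 80 µM CK666, a compound that blocks branched actin assembly by the Arp2/3 complex. All groups shared one serum-containing basal medium with non-essential amino acids, renewed every day. The CK666 stock was in DMSO, and since DMSO in the controls is not mentioned, drug and solvent cannot be told apart. The comparison of these genes asks whether culture with the inhibitor came with a transcript pattern of drug stress.

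The integrated stress response begins with kinases (PERK, GCN2, HRI and PKR) that phosphorylate the translation factor eIF2 alpha, which lowers protein synthesis in general and favours translation of ATF4, a transcription factor of the bZIP class. ATF4, alone or with partners such as C/EBP proteins and CHOP, switches on genes for amino acid synthesis and import, tRNA charging, redox balance and feedback on the pathway itself. Because ATF4 is regulated largely through translation, its transcript level is only a partial readout, and protein and eIF2 phosphorylation were not analysed here.

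Many ATF4 targets carry a C/EBP-ATF response element near the transcription start. Its letters TGATGNAA were searched on both strands in RefSeq promoter windows of GRCm38.p6 that reach from 250 bases before to 50 bases after the start of a gene. They were found in the windows of 5 of the 10 genes, Nupr1, Trib3, Chac1, Asns and Atf3, and in 3.97% of all 32851 windows. The matched sites are shown because they fall on Nupr1, on the 3 members that were called for CK666 (Trib3, Chac1 and Asns) and on Atf3, which was not called in any comparison. Each line gives 30 bases on the strand of the gene, 5′ to 3′, with the match in capitals.
Nupr1: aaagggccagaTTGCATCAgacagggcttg
Trib3: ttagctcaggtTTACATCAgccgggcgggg
Chac1: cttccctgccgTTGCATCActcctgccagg
Asns: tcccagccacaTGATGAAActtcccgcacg
Atf3: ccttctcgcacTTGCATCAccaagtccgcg
The match reads along the gene only in Asns and on the opposite strand in the other 4, and Nupr1, Chac1 and Atf3 share the letters TGATGCAA.
The printed stretches lie at chr7:126625562-126625591 (minus strand) for Nupr1, chr2:152344028-152344057 (minus) for Trib3, chr2:119351038-119351067 (plus) for Chac1, chr6:7693214-7693243 (minus) for Asns and chr1:191183425-191183454 (minus) for Atf3. In the GENCODE annotation used for the counts, the sites of Trib3, Chac1 and Atf3 are upstream of the main transcript, whereas those of Nupr1 and Asns fall within its first exon, since the annotated starts differ between the 2 sources. Chac1, the tested member with the largest log2 fold change for CK666, carries its site in the following upstream stretch of 120 bases (chr2:119350992-119351111, plus strand).
Chac1 upstream: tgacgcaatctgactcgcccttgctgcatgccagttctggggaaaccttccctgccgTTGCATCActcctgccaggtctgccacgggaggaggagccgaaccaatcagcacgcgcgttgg
The cAMP response element TGACGTCA was in 0 of the 10 genes' windows and in 1.79% of all windows. The shorter letters CCACG, part of the endoplasmic reticulum stress element, were in 7 of 10 and in 32.77% of all windows. These are matches of letters and not measured binding. The genes were chosen as known members of a pathway whose targets often carry TGATGNAA, so its 5 of 10 is a description. Sites outside the windows were not searched for.

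Levels between genes were compared as TPM, which accounts for transcript length. Averaged over the 9 libraries, the order was Asns (539 TPM), Psat1 (379), Atf4 (219), Ddit4 (142), Ddit3 (93.3), Sesn2 (64.1), Nupr1 (53.2), Trib3 (36.1), Chac1 (19.8) and Atf3 (7.92). The amino acid enzymes were thus the most abundant members and Atf3 was the least abundant. Neighbours in this order overlapped between libraries, for example Asns at 156 to 1464 TPM and Psat1 at 141 to 744 TPM. Transcripts are also given in TPM. Other gene levels are CPM, read counts scaled to a common library total with TMM factors, which compare 1 gene between libraries but not genes with each other.

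The library totals were 16894327 to 22550952 estimated counts. All 8 markers of embryonic stem cells were detected in every group, with a summed level of 4374 to 5015 CPM with LIF2i, 2474 to 2634 CPM without and 2350 to 2755 CPM under CK666. Markers of fibroblasts summed to 6.14 to 9.39 CPM with LIF2i, 29.4 to 32.95 CPM without (5 of 7 above the detection floor of 0.2 CPM in each) and 17.4 to 26.7 CPM under CK666 (6 of 7). Those of endothelium summed to 184 to 224 CPM with LIF2i (3 of 4), 16.8 to 30.3 CPM without (4 of 4) and 25.2 to 86.1 CPM under CK666 (3 of 4). The summed endothelial markers thus stood lowest in the control without LIF2i, with a range that overlapped that under CK666. The means of all members but Atf3 and Ddit4 were also lowest in that control. Markers of trophoblast, extraembryonic endoderm and blood summed to at most 36.0 CPM in any library. The part of these markers in the results was not tested. In a culture measured in bulk, fewer expressing cells and less RNA per cell cannot be told apart.

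The replicate 1 libraries stood apart for these genes in all 3 groups. They held the highest value of their group for Asns, Psat1, Sesn2 and Chac1 and the lowest for Nupr1. The study's design text describes the biological replicates as paired, so the replicate number was kept as a block and differences were read within a number. The p-values then measure only the spread between these cultures.

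**Figure D1:**
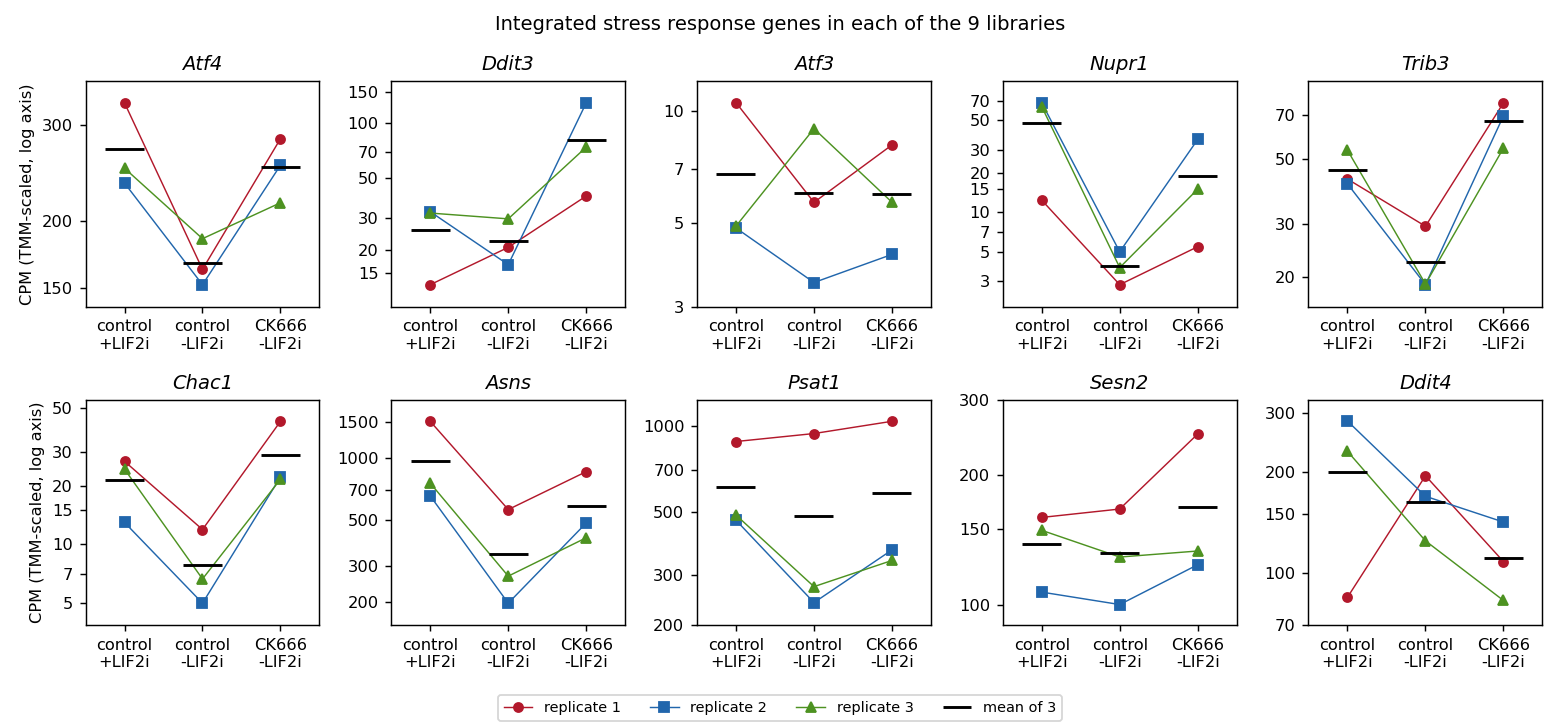
CPM of the 10 genes on a log axis in the 9 libraries, by group, with lines joining libraries of one replicate number and black bars for the mean of 3. Atf4, Trib3, Chac1, Asns and Nupr1 were lower in the control without LIF2i than in the control with it, and higher with CK666 than without, in every replicate number. Ddit4 was lower with CK666 than without in every replicate number, and the direction of Atf3 differed between them.

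Removal of LIF2i came with lower levels of Asns, Chac1, Trib3, Atf4 and Psat1. Between the controls without and with LIF2i, the quasi-likelihood test of edgeR, with Benjamini-Hochberg adjustment, called 5 of the 9 tested members, all 5 lowered and 0 raised. The background was high here: 40.7% of all 14648 genes were called, 21.1% raised and 19.7% lowered. The median log2 fold change of the 9 members was -0.58, beside 0.01 over all genes tested. Between CK666 and control cells without LIF2i, 3 of the 9 were called, Chac1, Trib3 and Asns, all 3 raised, where 2.05% of all genes were called, 1.15% raised and 0.894% lowered. The median of the 9 members was 0.58, beside 0.02 over all genes. The members were chosen with earlier results of these data known, so these shares are a description. Both comparisons use the same control libraries without LIF2i, so a high or low value there moves them in opposite directions. For that reason each gene is also given against the control with LIF2i, where 2 of the 9 were called, Ddit3 raised and Asns lowered, and 36.9% of all genes were called.

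Atf4 (chr15:80255184-80257541, plus strand) encodes the central transcription factor of the response. It was at 330, 235 and 250 CPM with LIF2i (replicates 1, 2 and 3), at 163, 152 and 185 CPM without, and at 283, 253 and 216 CPM under CK666. The 3 control libraries without LIF2i lay below all 6 others. Withdrawal lowered it, at -0.69 on the log2 scale (SE 0.14, edgeR adjusted p 0.00458), and this call held in 17 of 17 alternative analyses. Under CK666 its log2 fold change was 0.58 (SE 0.14, 95% interval 0.26 to 0.90) and missed the threshold (edgeR adjusted p 0.0678), although the groups did not overlap and 3 of 3 pairs were higher. It passed in 3 of 17 alternatives: without a filter on low counts (edgeR adjusted p 0.0319), with DESeq2 (adjusted p 0.0154) and without the LIF2i library of replicate 1 (edgeR adjusted p 0.0165). Relative to the control with LIF2i the difference was -0.11 on the log2 scale (95% interval -0.43 to 0.21, edgeR adjusted p 0.594). One transcript, Atf4-201, held 96.4% to 98.8% of the TPM of the gene in every library.

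Ddit3 (chr10:127290774-127296288, plus strand) encodes CHOP, a partner of ATF4 linked to cell death under lasting stress. It was at 12.9, 32.6 and 32.0 CPM with LIF2i, at 20.7, 16.6 and 29.7 CPM without, and at 39.8, 130 and 74.1 CPM under CK666. Every CK666 library lay above all 6 control libraries although the CK666 values were far apart, with replicate 2 highest and replicate 1 lowest. Against control cells without LIF2i the log2 fold change was 1.70 (SE 0.35, 95% interval 0.90 to 2.5), just outside the threshold (edgeR adjusted p 0.0501). It passed in 3 of 17 alternatives: with DESeq2 (adjusted p 1.71e-05), without the replicate 1 libraries (edgeR adjusted p 0.0358) and without the replicate 1 control without LIF2i (edgeR adjusted p 0.0434). Leaving out the replicate 2 libraries gave 1.10 on the log2 scale (edgeR adjusted p 0.233). Against the control with LIF2i, Ddit3 was the member that rose, at 1.64 on the log2 scale (SE 0.34, edgeR adjusted p 0.00637, 3 of 3 pairs); this call was lost without the LIF2i library of replicate 1 (edgeR adjusted p 0.0601) and held in the other 16 alternatives. Withdrawal itself gave -0.06 (95% interval -0.85 to 0.72, edgeR adjusted p 0.907), and its sign turned when single libraries were left out. Of the exonic bases of Ddit3, 10.9% are shared with other annotated genes, among them Mars on the other strand and a second entry of Ddit3 itself with 0 counts, and the strand setting of the counts is not given in the sources used here.

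Atf3 (chr1:191170296-191218039, minus strand) encodes an early stress factor that is induced with ATF4 in many cells. It was at 10.5, 4.86 and 4.92 CPM with LIF2i, at 5.69, 3.48 and 8.96 CPM without, and at 8.10, 4.13 and 5.70 CPM under CK666. The 3 groups overlapped throughout, and its level was the lowest of the members. The log2 fold change for CK666 was -0.02 (95% interval -0.78 to 0.75, edgeR adjusted p 0.985). With limma on log2(TPM + 1) the sign turned, at 0.40. Against the control with LIF2i, Atf3 was at -0.17 (95% interval -0.93 to 0.58, edgeR adjusted p 0.719). Withdrawal gave -0.15 (95% interval -0.92 to 0.61, edgeR adjusted p 0.753). The coding transcript Atf3-201 and Atf3-202, annotated without a reading frame, shared its TPM in proportions from 33.5% to 100% for Atf3-201, and 1 library, replicate 1 with LIF2i, held 15.6 TPM of Atf3-202 against 4.15 TPM or less in the other 8.

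Nupr1 (chr7:126623249-126630861, minus strand) encodes a small stress-induced chromatin protein known as p8 and was selected on its CK666 values, so only those values are given. It was at 12.3, 68.1 and 63.7 CPM with LIF2i, at 2.80, 4.98 and 3.78 CPM without, and at 5.45, 35.8 and 15.0 CPM under CK666. Replicate 1 was the lowest in each group, and the CK666 library of replicate 1 was only slightly above the highest control library without LIF2i. The fitted log2 difference was 1.97 for CK666 against control without LIF2i and -3.37 for withdrawal. Against the control with LIF2i it was -1.40, so the CK666 cultures remained below self-renewing cells in each replicate number. One coding transcript, Nupr1-201, held 83.0% to 98.4% of its TPM.

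Among protein-coding genes averaging a log2 CPM of 3 or more, the 5 whose level over the 9 libraries was most like that of Nupr1, once replicate means were removed, were Twf2 (Pearson r 0.996), Tm7sf3 (0.991), Pccb (0.990), Ankrd26 (0.989) and Mcu (0.989), among 9497 genes ranked. The points share the same 9 libraries and their depth, so this is a description of a low, intermediate and high pattern over 3 groups. Tm7sf3, for example, averaged 225 CPM with LIF2i, 72.6 CPM without and 144 CPM under CK666. Of the other members Asns followed this pattern best, at r 0.977 and rank 30, and Ddit3 was far from it, at r 0.244. The member pair most alike was Chac1 and Trib3, at r 0.986 over the same 9 libraries.

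Trib3 (chr2:152337422-152344032, minus strand) encodes a pseudokinase that is induced by ATF4 and CHOP and feeds back on them. It was at 42.7, 41.1 and 53.3 CPM with LIF2i, at 29.6, 18.8 and 18.9 CPM without, and at 77.1, 69.6 and 54.2 CPM under CK666. The 3 groups did not overlap, with CK666 highest and the control without LIF2i lowest. CK666 raised it by 1.59 on the log2 scale (SE 0.20, edgeR adjusted p 0.0143, 3 of 3 pairs), a 3.02-fold higher level than in control cells without LIF2i. Withdrawal lowered it, at -1.06 on the log2 scale (SE 0.20, edgeR adjusted p 0.0026), in 17 of 17 alternatives. Against the control with LIF2i it was 0.54 higher on the log2 scale (95% interval 0.10 to 0.97), which missed the threshold (edgeR adjusted p 0.0564). It passed in 5 of 17 alternatives, without a filter (edgeR adjusted p 0.0333), with DESeq2 (adjusted p 0.0312), and without the replicate 3 libraries (0.0442), the replicate 3 control with LIF2i (0.0166) or the replicate 1 control without LIF2i (0.0398).

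Chac1 (chr2:119351229-119354381, plus strand) encodes an enzyme that degrades glutathione and is induced through ATF4 and CHOP. It was at 26.7, 12.96 and 24.4 CPM with LIF2i, at 11.9, 4.98 and 6.64 CPM without, and at 42.9, 22.2 and 21.6 CPM under CK666. Each CK666 library was above each control library without LIF2i, and replicate 1 was the highest of all 3 groups. CK666 raised it by 1.91 on the log2 scale (SE 0.22, edgeR adjusted p 0.0112, 3 of 3 pairs), which is 3.75-fold. Withdrawal lowered it, at -1.48 (SE 0.22, edgeR adjusted p 0.000637), in 17 of 17 alternatives. Between CK666 and the control with LIF2i the difference was 0.42 (95% interval -0.04 to 0.89, edgeR adjusted p 0.139), higher in 2 of 3 pairs, and it passed only without the replicate 3 control with LIF2i (0.69, edgeR adjusted p 0.0392).

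Asns (chr6:7675169-7693254, minus strand) encodes asparagine synthetase, a standard target of ATF4. It was at 1513, 657 and 758 CPM with LIF2i, at 564, 198 and 268 CPM without, and at 862, 486 and 412 CPM under CK666. The CK666 and control libraries without LIF2i overlapped, with replicate 1 high in both, yet CK666 was higher within each replicate number. CK666 raised it by 0.84 on the log2 scale (SE 0.15, edgeR adjusted p 0.0329, 3 of 3 pairs). Withdrawal lowered it, at -1.54 (SE 0.15, edgeR adjusted p 8.05e-05), in 17 of 17 alternatives. Asns also stayed lower with CK666 than with LIF2i, at -0.70 on the log2 scale (SE 0.15, edgeR adjusted p 0.00626, 3 of 3 pairs), a call lost without the replicate 3 libraries (edgeR adjusted p 0.102) and without the block (edgeR adjusted p 0.322).

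The CK666 calls of Chac1, Trib3 and Asns were lost without the pairing, without replicate 2 and without replicate 3, as were nearly all CK666 calls over the genome. Without the replicate block 0 of the 9 members, and 0 of all 14648 genes, were called with edgeR, although 4 members and 1251 genes had an unadjusted p under 0.05; the adjusted p was then 0.303 for Chac1, 0.189 for Trib3 and 0.728 for Asns, with log2 fold changes of 1.88, 1.58 and 0.77. Chac1 passed in 11 of 17 alternatives, and besides that fit it was lost without replicate 2 (edgeR adjusted p 0.0809), without replicate 3 (0.0909), without the control without LIF2i of replicate 2 (0.0728) or replicate 3 (0.0775), and without the CK666 library of replicate 2 (0.0679). Trib3 passed in 11 of 17 and was lost in the same cases, with edgeR adjusted p-values of 0.165, 0.0909, 0.111, 0.113 and 0.0858. Asns passed in 7 of 17 and was lost in the same cases, at edgeR adjusted p-values of 0.38, 0.323, 0.173, 0.177 and 0.204. It was also lost without the replicate 1 control without LIF2i (edgeR adjusted p 0.0639), the replicate 3 control with LIF2i (0.0613) or the CK666 library of replicate 3 (0.102), and with limma on TPM (adjusted p 0.0822). Over all genes, edgeR called 8 for CK666 without replicate 2 and 0 without replicate 3 (1360 with an unadjusted p under 0.05), against 300 with all libraries. It called 5, 4 and 2 without the replicate 2 control without LIF2i, the replicate 3 control without LIF2i and the replicate 2 CK666 library. The estimates of the 3 members kept their sign and ranged between 1.73 and 2.10 for Chac1, 1.43 and 1.78 for Trib3 and 0.60 and 0.95 for Asns on the log2 scale.

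**Figure D2:**
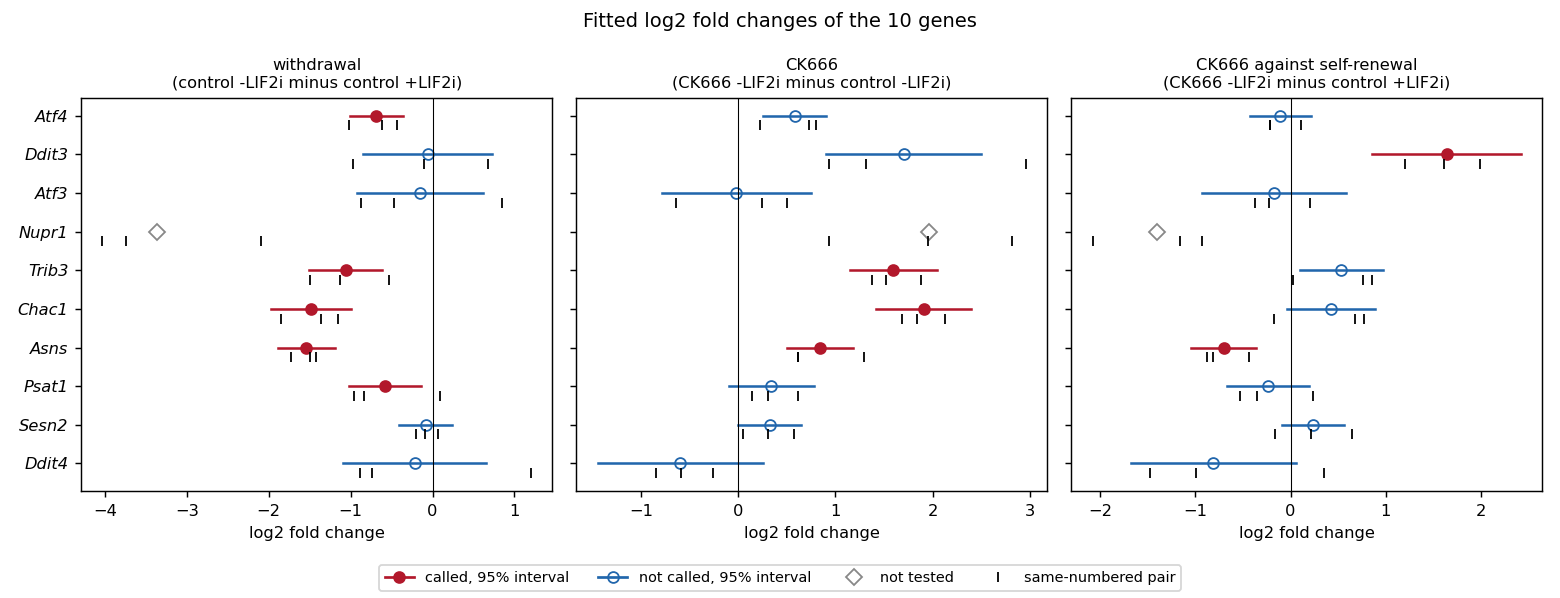
Fitted log2 fold changes of the 10 genes in the 3 comparisons, with 95% intervals for the 9 tested members (filled, called; open, not called), Nupr1 as a diamond without a test, and ticks for the 3 same-numbered pairs. Chac1, Trib3 and Asns lie left of 0 for withdrawal and right of 0 for CK666, and Ddit3 is the only member called higher against the control with LIF2i.

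Psat1 (chr19:15904678-15947337, minus strand) encodes phosphoserine aminotransferase, an enzyme of serine synthesis. It was at 885, 468 and 488 CPM with LIF2i, at 944, 240 and 273 CPM without, and at 1042, 368 and 337 CPM under CK666. Replicate 1 was far above the other 2 in every group and went against them for withdrawal. Withdrawal lowered it, at -0.58 on the log2 scale (SE 0.19, edgeR adjusted p 0.0396), with 2 of 3 pairs lower. This call held in 7 of 17 alternatives and was lost without the block (edgeR adjusted p 0.754) and on leaving out replicate 2 (0.296), replicate 3 (0.286), any CK666 library (0.0551 to 0.06) or any replicate 2 or 3 control library (0.156 to 0.198). For CK666 the log2 fold change was 0.34 (95% interval -0.09 to 0.78, edgeR adjusted p 0.366), higher in 3 of 3 pairs, and it passed only without the replicate 1 libraries (edgeR adjusted p 0.0318). Against the control with LIF2i it was at -0.24 (95% interval -0.67 to 0.20, edgeR adjusted p 0.37), and passed without the replicate 1 libraries (-0.43, edgeR adjusted p 0.0124) or without the LIF2i library of replicate 1 (-0.48, edgeR adjusted p 0.01).

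The shares of the Psat1 isoforms varied widely between libraries. Its main transcript Psat1-201 held 63.3% ± 8.9 of the TPM of the gene (SD, n = 3) with LIF2i, 83.9% ± 10.2 without and 73.4% ± 10.5 under CK666. Psat1-205 held 21.6% ± 11.3, 9.4% ± 5.1 and 15.9% ± 5.4. Psat1-207, whose first base lies farther upstream than that of Psat1-201, held 11.3% ± 4.7, 3.3% ± 3.1 and 7.0% ± 5.2. For Psat1-201 the shares were 53.2% to 70.0% in the libraries with LIF2i and 74.9% to 94.9% in those without, so these groups did not overlap, whereas the CK666 libraries, at 66.8% to 85.6%, overlapped both. For the other transcripts the groups overlapped, and no test of the shares was run. Replicate 1 without LIF2i had 608 TPM of Psat1-201 and 0 TPM of Psat1-207, against 396 and 97.5 TPM in replicate 1 with LIF2i.

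**Figure D3:**
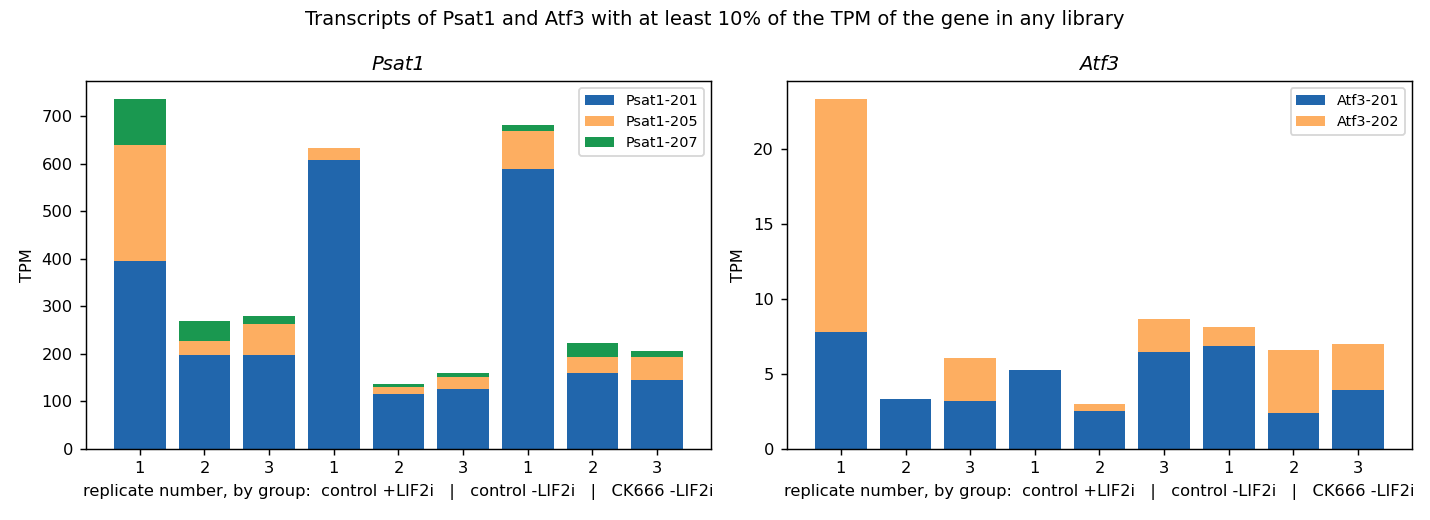
Stacked TPM of the transcripts of Psat1 and Atf3 that held at least 10% of the TPM of their gene in any library, 1 bar for each of the 9 libraries. The replicate 1 bars of Psat1 are the tallest of each group, and Atf3-202 reaches 15.6 TPM in 1 library with LIF2i.

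Sesn2 and Ddit4 encode inhibitors of the growth kinase mTORC1 that stress can induce, Sestrin 2 and REDD1. Sesn2 (chr4:132492032-132510501, minus strand) was at 160, 107 and 149 CPM with LIF2i, at 167, 100 and 129 CPM without, and at 250, 124 and 134 CPM under CK666. The groups overlapped, and the one high value was replicate 1 under CK666. Its log2 fold change for CK666 was 0.32 (95% interval -0.01 to 0.65, edgeR adjusted p 0.26), and it was not called in any comparison or alternative. Against the control with LIF2i, Sesn2 was at 0.24 (95% interval -0.09 to 0.56, edgeR adjusted p 0.234). Withdrawal gave -0.085 (95% interval -0.41 to 0.24, edgeR adjusted p 0.675). Ddit4 (chr10:59949669-59951834, minus strand) was at 84.7, 283 and 230 CPM with LIF2i, at 195, 169 and 124.7 CPM without, and at 108, 142 and 82.8 CPM under CK666. It was lower with CK666 in 3 of 3 pairs, the one member besides Atf3 with a negative estimate, but the groups overlapped. The log2 fold change was -0.60 (95% interval -1.45 to 0.26, edgeR adjusted p 0.421), and it passed only without the LIF2i library of replicate 1 (-0.58, edgeR adjusted p 0.0175). For withdrawal, replicate 1 was higher without LIF2i while replicates 2 and 3 were lower, at a fitted -0.22 (edgeR adjusted p 0.684). The log2 fold change was -0.72 (edgeR adjusted p 0.00242) without that same library and -0.79 (edgeR adjusted p 0.000882) without all replicate 1 libraries. Against the control with LIF2i it went from -0.81 (95% interval -1.68 to 0.06, edgeR adjusted p 0.128) to -1.30 (5.41e-05) and -1.22 (7.94e-05) in the same cases.

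The wider pathway was followed in 103 genes, placed by role in 9 lists, of which 102 passed the expression filter; Fgf21 did not. For CK666, 12 of the 102 were called, all 12 raised (11.8%, beside 2.05% of all genes), with a median log2 fold change of 0.20 beside 0.02 over all genes. For withdrawal 58 of the 102 were called, 11 raised and 47 lowered (56.9%, beside 40.7% of all genes), with a median of -0.35. Compared with the control with LIF2i, 43 were called, 15 raised and 28 lowered (42.2%, beside 36.9% of all genes). The lists were chosen with results of these libraries known, so the counts are a description. For the CK666 counts of single lists given next, the shares over all genes were 19.7% with an unadjusted p under 0.05 in edgeR, 7.76% called by DESeq2 and 0.287% by limma. Without the block edgeR called 0 of the 102 for CK666 (27 with an unadjusted p under 0.05), 24 for withdrawal and 15 against the control with LIF2i. The CK666 count was 0 without replicate 2, without replicate 3, or without any one of the replicate 2 control without LIF2i, the replicate 3 control without LIF2i and the replicate 2 CK666 library. It was 36 without replicate 1 and 40 without the replicate 1 library with LIF2i, and 2, 5 and 6 without the replicate 3 CK666 library, the replicate 1 control without LIF2i and the replicate 3 control with LIF2i. These counts moved with the calls over all genes, which numbered 300 with all libraries, 1811 and 1657 in the fits with 36 and 40, 0 to 8 in those with 0, and 30, 152 and 120 in those with 2, 5 and 6. Singly, the 12 calls held in 5 (Pycr1 and Cars) to 11 (Pck2) of 17 alternatives. Of these 12, Slc7a1 (-0.97, edgeR adjusted p 0.00149), Slc1a5 (-0.50, edgeR adjusted p 0.0438) and Gdf15 were called lower than in the control with LIF2i. Vldlr was called higher. The remainder of the 12 were not called against that control, at log2 fold changes from -0.195 (Cars) to 0.28 (Pck2). The withdrawal count was 34 without replicate 2 and 30 without replicate 3, and 36, 35 and 38 without the replicate 2 and replicate 3 controls without LIF2i and the replicate 3 control with LIF2i, in fits that called 3099 to 4359 of all genes against 5967 with all libraries. Against self-renewal it was 22 without replicate 2, 16 without replicate 3 and 28 without the replicate 2 CK666 library.

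At the entry of the pathway no gene was called for CK666, a count near the 2.05% of all genes called given the length of these lists. Of 7 eIF2 kinases and regulators 0 were called with edgeR, 2 had an unadjusted p under 0.05 (19.7% of all genes did), and DESeq2 and limma each called 0. The list median was 0.22, with the most abundant, Impact and Gcn1l1, at log2 fold changes of 0.55 (95% interval 0.02 to 1.08, edgeR adjusted p 0.234) and 0.22 (95% interval -0.12 to 0.56, edgeR adjusted p 0.464). Impact, an inhibitor of GCN2 activation, passed without the replicate 1 libraries (0.92, edgeR adjusted p 0.00355) and without the CK666 library of replicate 1 (0.87, edgeR adjusted p 0.0367). With all libraries it was higher in 2 of 3 pairs and lower in replicate 1, and its groups overlapped. Eif2ak3, the gene of PERK, was at 0.39 (95% interval 0.08 to 0.70, edgeR adjusted p 0.164). It was higher in 3 of 3 pairs without overlap of the groups. Of 10 genes for eIF2, its exchange factor eIF2B and its phosphatase 0 were called with edgeR, 3 had an unadjusted p under 0.05 beside that 19.7%, DESeq2 called 1 and limma 0. The list median was -0.045, with Eif2s2 at -0.06 (95% interval -0.38 to 0.25) and Eif2s3x at 0.01 (95% interval -0.24 to 0.25). The 3 with an unadjusted p under 0.05 were subunits of eIF2B, Eif2b2 (-0.54, edgeR adjusted p 0.0713), Eif2b1 (-0.34, edgeR adjusted p 0.172) and Eif2b4 (-0.29, edgeR adjusted p 0.244), each lower in 3 of 3 pairs without overlap of the groups. Eif2b2 was called in 3 of 17 alternatives and the other two in 0. Withdrawal lowered 2 of the 7 and 4 of the 10 and raised 0, beside 19.7% of all genes lowered and 21.1% raised. These were Eif2ak3, which encodes PERK (-0.61, called in 15 of 17 alternatives), Eif2ak2, which encodes PKR (-0.45, 4 of 17), Eif2s2 (-0.85, 16 of 17), Eif2s3x (-0.46, 13 of 17), the inducible phosphatase subunit Ppp1r15a (-0.57, 10 of 17) and Ppp1r15b (-0.31, 1 of 17, with DESeq2).

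Among 9 bZIP relatives of ATF4, CK666 raised 1, Nfe2l1, a factor that controls proteasome genes, beside 1.15% of all genes raised. It was at 257, 214 and 217 CPM without LIF2i and at 369, 339 and 315 CPM under CK666, with no overlap (log2 fold change 0.58, SE 0.10, edgeR adjusted p 0.033). Of the 9, 5 had an unadjusted p under 0.05, DESeq2 called 4 and limma 0. Atf5, a close relative of ATF4, had a larger estimate that was not called, at 1.36 (95% interval 0.55 to 2.17, edgeR adjusted p 0.0846), and Jun was at -0.63 (95% interval -1.04 to -0.21, edgeR adjusted p 0.103), lower in 3 of 3 pairs. Each was called in 3 of 17 alternatives. Withdrawal called 5 of the 9, in both directions, beside 40.7% of all genes. It raised Jun by 2.68 and the C/EBP genes Cebpd by 1.48 and Cebpb by 0.66 on the log2 scale, and lowered the repressor Jdp2 (-2.52) and Nfe2l1 (-0.62). The calls of Cebpd and Cebpb held in 12 and 8 of 17 alternatives.

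The amino acid genes held most of the CK666 calls. Of 14 enzymes, 4 rose and 0 fell, beside 1.15% of all genes raised and 0.894% lowered. Of the 14, 7 had an unadjusted p under 0.05, DESeq2 called 6 and limma 3. In edgeR without the replicate block, 5 of the 14 had an unadjusted p under 0.05, beside 8.54% of all genes. Mthfd1l, at -0.32 (SE 0.14, edgeR adjusted p 0.249), and Shmt1, at -0.18 (95% interval -0.49 to 0.14, edgeR adjusted p 0.536), were lower in 3 of 3 pairs and were not called. Mthfd1l was called in 2 of 17 alternatives. Cth, at 1.14 (edgeR adjusted p 0.0557), and Gpt2, at 0.68 (edgeR adjusted p 0.0519), were not called either. Both were higher in 3 of 3 pairs without overlap of the groups. Pck2, the mitochondrial PEP carboxykinase, was at 97.2, 46.1 and 36.3 CPM without LIF2i and at 201, 139 and 105 CPM under CK666 (log2 fold change 1.38, SE 0.14, edgeR adjusted p 0.00743). The CK666 libraries lay above the controls in each case. Mthfd2, of mitochondrial one-carbon metabolism, rose by 1.08 (SE 0.16, edgeR adjusted p 0.0247), and Aldh18a1 and Pycr1, of proline synthesis, rose by 0.94 (SE 0.15, edgeR adjusted p 0.0261) and 0.81 (SE 0.17, edgeR adjusted p 0.0462). The list median was 0.57 for CK666 and -0.84 for withdrawal, which called 11 of the 14, 10 lowered and 1 raised, beside 19.7% of all genes lowered and 21.1% raised. The most lowered were Cth (-1.47), which makes cysteine, Pck2 (-1.11), Gpt2 (-1.03) and Aldh18a1 (-0.97).

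Of 10 amino acid transporters CK666 raised 3 and lowered 0, beside 1.15% of all genes raised, with a list median of 0.85. Of the 10, 9 had an unadjusted p under 0.05, DESeq2 called 7 and limma 0. In edgeR without the replicate block, 5 of the 10 had an unadjusted p under 0.05, beside 8.54% of all genes. The estimates did not all point one way: Slc38a2, at -0.52 (95% interval -0.85 to -0.19, edgeR adjusted p 0.0931), and Slc7a3, at -0.53 (95% interval -0.97 to -0.09, edgeR adjusted p 0.176), were lower in 3 of 3 pairs, and each was called in 3 of 17 alternatives. Slc3a2, at 0.97 (edgeR adjusted p 0.0873), and Slc1a4, at 0.78 (edgeR adjusted p 0.0517), were not called either. Both were higher in 3 of 3 pairs without overlap of the groups. Slc7a1, a carrier of arginine and lysine, was at 111, 36.0 and 37.8 CPM without LIF2i and at 250, 103 and 74.2 CPM under CK666 (log2 fold change 1.22, SE 0.16, edgeR adjusted p 0.0188). The groups overlapped through the high replicate 1 control, and 3 of 3 pairs were higher. Slc7a5, the light chain of the leucine carrier LAT1, rose by 0.94 (SE 0.19, edgeR adjusted p 0.0456), and Slc1a5, a glutamine carrier, by 0.92 (SE 0.17, edgeR adjusted p 0.0337). Withdrawal called 7 of the 10, 4 lowered, led by Slc7a1 (-2.20) and Slc1a5 (-1.42), and 3 raised, led by Slc38a2 (1.16) and Slc7a3 (1.10). Over all genes 40.7% were called, 19.7% lowered and 21.1% raised, so the 3 of 10 raised are near that share.

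Of 13 genes for cytosolic tRNA charging and export, CK666 raised 2, the alanyl and cysteinyl tRNA synthetases Aars (log2 fold change 0.80, SE 0.13, edgeR adjusted p 0.0261) and Cars (0.56, SE 0.12, edgeR adjusted p 0.0458). These 2 of 13 stand beside 2.05% of all genes called. The median of the list was 0.38, 9 of the 13 had an unadjusted p under 0.05, DESeq2 called 5 and limma 0. In edgeR without the replicate block, 0 of the 13 had an unadjusted p under 0.05, beside 8.54% of all genes. Withdrawal lowered 9 of the 13 and raised 0, beside 19.7% and 21.1% of all genes, led by Aars (-0.88), Cars (-0.76), Tars (-0.71) and Nars (-0.66).

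Among 14 other targets of ATF4 and CHOP, CK666 raised 2 and lowered 0, beside 2.05% of all genes called; 6 had an unadjusted p under 0.05, DESeq2 called 4 and limma 0. Gdf15, a secreted stress cytokine, was at 2.03, 4.41 and 2.91 CPM without LIF2i and at 5.73, 16.4 and 6.26 CPM under CK666 (log2 fold change 1.53, SE 0.27, edgeR adjusted p 0.0304). Its groups did not overlap, but it remained under the 18.4 CPM mean of the control with LIF2i (-1.09 on the log2 scale, edgeR adjusted p 0.00871). Vldlr, the VLDL receptor, rose by 1.30 (SE 0.21, edgeR adjusted p 0.0261) and was also higher than with LIF2i (0.97, edgeR adjusted p 0.0054). The median of this list for CK666 was 0.11, and Ero1l, an oxidase of the endoplasmic reticulum, was at -0.45 (95% interval -0.81 to -0.08, edgeR adjusted p 0.175), lower in 3 of 3 pairs and called in 1 of 17 alternatives. Herpud1, at 0.685 (edgeR adjusted p 0.0554), was not called either. It was higher in 3 of 3 pairs without overlap of the groups. Withdrawal called 9 of the 14, beside 40.7% of all genes, with Gdf15 (-2.62) and the angiogenic factor Vegfa (-2.27) lowered and the apoptosis genes Bbc3 (2.10) and Pmaip1 (1.62) raised.

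Neighbouring stress programmes gave no edgeR calls for CK666, again near the 2.05% of all genes called. Of 17 endoplasmic reticulum targets of ATF6 and XBP1, the other branches of the unfolded protein response, 0 were called with edgeR and the median was -0.04; 4 had an unadjusted p under 0.05 and DESeq2 called 2, near the 19.7% and 7.76% of all genes, and limma called 0. The most abundant, the chaperones Calr and Hsp90b1, had log2 fold changes of 0.06 (95% interval -0.33 to 0.45, edgeR adjusted p 0.89) and -0.28 (95% interval -0.57 to 0.00, edgeR adjusted p 0.258). Hspa5, the chaperone BiP and a standard marker of this branch, was closest to the threshold, at -0.72 (95% interval -1.08 to -0.36, edgeR adjusted p 0.0547), lower in 3 of 3 pairs without overlap of the groups. Atf6 was at 0.61 (95% interval 0.28 to 0.94, edgeR adjusted p 0.0637), higher in 3 of 3 pairs. Hspa5 was called in 4 and Atf6 in 3 of 17 alternatives. Of 8 genes of the mitochondrial relay and its chaperones 0 were called with edgeR and the median was 0.36; 4 had an unadjusted p under 0.05 beside that 19.7%, DESeq2 called 1 and limma 0. Hspa9, a mitochondrial HSP70, missed the threshold at 0.60 (95% interval 0.26 to 0.93, edgeR adjusted p 0.0694), and was called in 4 of 17 alternatives. Hspe1 was at 0.17 (95% interval -0.15 to 0.50, edgeR adjusted p 0.564). Withdrawal called 8 of the 17, 7 lowered and 1 raised, beside 19.7% of all genes lowered and 21.1% raised, led by Sdf2l1 (-0.87), Xbp1 (-0.83), Sel1l (-0.70) and Pdia4 (-0.70). It lowered 3 of the 8 mitochondrial genes and raised 0, beside the same shares: Hspa9 (-0.43, called in 6 of 17 alternatives), Clpp (-0.39, 4 of 17) and Trap1 (-0.35, 4 of 17).

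**Figure D4:**
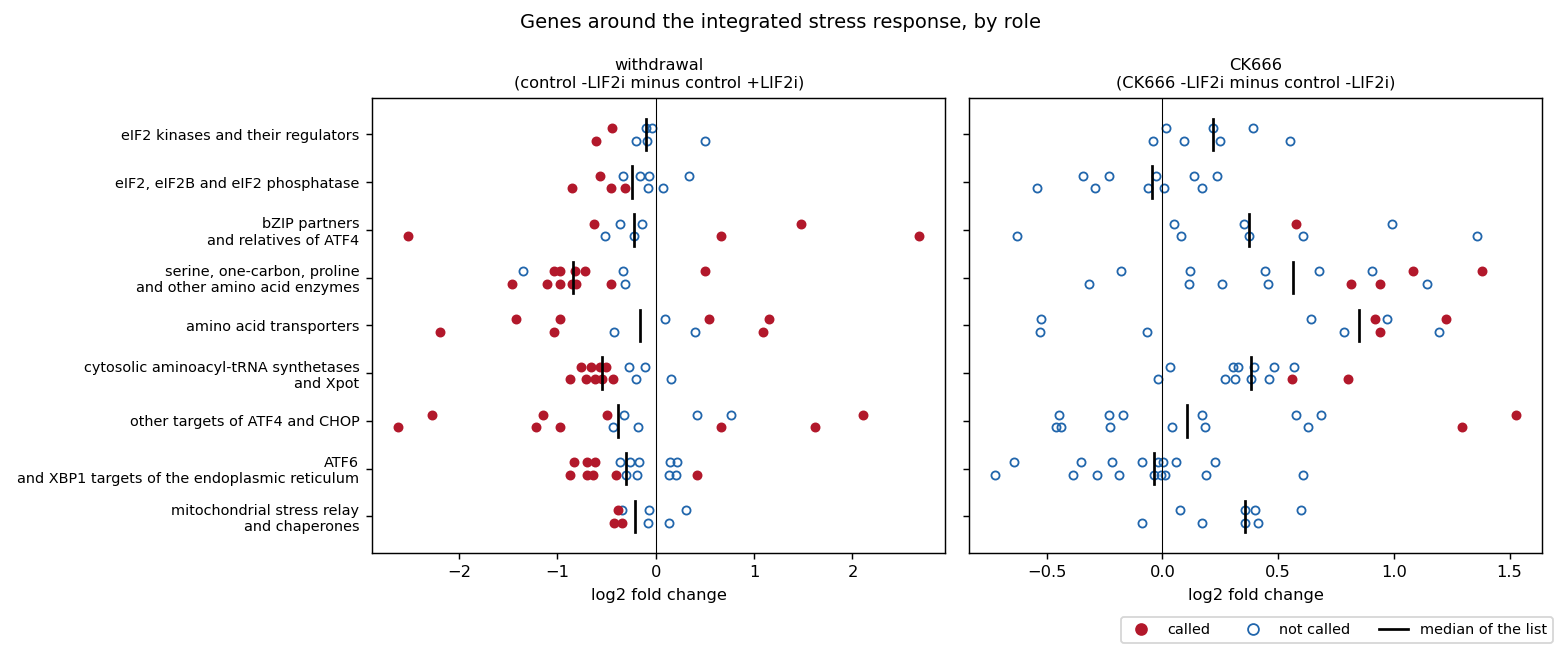
Log2 fold changes of the 102 pathway genes past the filter, by role, for withdrawal and for CK666; filled points were called and black bars mark the median of each list. For CK666 the filled points are all right of 0 and lie in the amino acid, tRNA, bZIP and ATF4 target rows, with none in the eIF2, endoplasmic reticulum or mitochondrial rows.

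The response element TGATGNAA was also looked up in the promoter windows of the pathway genes. Of the 12 raised by CK666, 9 had a window in RefSeq and 4 of these held the letters, Aars, Pck2, Pycr1 and Vldlr. Of all 102 genes past the filter, 78 had a window and 14 held the letters, beside 3.97% of all windows.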

How the data were processed

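The 10 genes, the pathway lists and the tests were chosen with earlier results of these data known. The deposited tables, 1 per library, list estimated counts and TPM of 119414 Ensembl transcripts, per the file headers. The estimated counts, as deposited, hold fractions and carry no normalisation. The TPM values deposited by the authors are divided by effective length and sum to the same total in each library. The submitters' processing notes name FastQC, cutadapt 1.8.1, kallisto and sleuth, and the builds GRCh38 and mm10, with no role given, so the index and build behind the counts, and whether counting used strand, are not given in the sources used here.

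Ensembl identifiers were matched to GENCODE M21 (GRCm38), giving 35896 genes from 116640 transcripts (97.7%); the others held 0.895% to 1.08% of a library's counts. Counts were summed per gene and rounded. All 9 libraries (16894327 to 22550952 estimated counts) entered one robust quasi-likelihood fit in edgeR 4.0.16 (R 4.3.3) with TMM scaling, edgeR's expression filter (14648 genes) and the replicate number as a block, leaving 4 residual degrees of freedom. Calls are at an adjusted p (Benjamini-Hochberg, over all genes tested) under 0.05. Standard errors and 95% intervals were derived from the test statistic. Intervals rest on the spread between libraries.

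The pairing comes from the design text, which calls the replicates paired. Deviations from group means correlated between same-numbered libraries with r of 0.303 to 0.653 (median 0.407, 9 pairs) and between differently numbered ones with r of -0.525 to 0.286 (median -0.368, 18 pairs). Of the differently numbered pairs, those with a replicate 1 library were at -0.525 to -0.354. Those between replicates 2 and 3 were at 0.214 to 0.286. Alternatives were no block, RLE size factors, no filter, DESeq2 1.42.0, limma 3.58.1 on log2(TPM + 1), and leaving out each replicate number or library. Named were all 10 genes. From each list up to 4 called genes with the largest absolute change were named for withdrawal and for CK666, or the 2 most abundant where CK666 called none. Further genes were named after their values were seen. These were Nfe2l1 for withdrawal, and Vldlr, Gdf15, Slc7a1, Slc1a5, Cars and Pck2 against self-renewal. For CK666, those with a negative estimate were Hspa5, Eif2b1, Eif2b2, Eif2b4, Slc38a2, Slc7a3, Jun, Mthfd1l, Shmt1 and Ero1l. Those with a positive estimate were Atf6, Atf5, Cth, Gpt2, Slc3a2, Slc1a4, Herpud1 and Eif2ak3. Genes like Nupr1 were ranked by Pearson correlation. Sequences are from RefSeq promoter windows (GRCm38.p6), which were found for all 10 genes.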

Additional observations from a re-analysis of the deposited data

How the results depend on the processing

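With the replicate block removed, the calls for the 10 genes were 0 for CK666 and 1 against the control with LIF2i, and the pathway calls were 24 for withdrawal, 0 for CK666 and 15 against the control with LIF2i. For CK666, DESeq2 called 5 members and 30 pathway genes (1136 of all genes), the absence of a filter gave 19 pathway genes (565 of all), and limma on log2(TPM + 1) gave 3 (42 of all), beside 300 of all genes in the edgeR fit. Leaving out libraries gave 0 to 5 members for CK666, 2 to 4 against the control with LIF2i, and 0 to 40, 30 to 66 and 16 to 47 pathway genes for CK666, withdrawal and CK666 against self-renewal. The 5 CK666 calls came without replicate 1 or without the replicate 1 library with LIF2i. The alternatives for the pathway genes were chosen after seeing the data. The cause was not tested. Estimates that turned sign were not called with all libraries. For withdrawal, leaving out libraries gave log2 fold changes of -0.46 to 0.39 for Ddit3, -0.20 to 0.051 for Sesn2, -0.69 to 0.26 for Atf3 and -0.79 to 0.19 for Ddit4. For CK666 it gave -0.34 to 0.47 for Atf3, -0.21 to 0.027 for Eif2s2, -0.034 to 0.033 for Eif2s3x and -0.11 to 0.29 for Calr, and against self-renewal -0.23 to 0.017 for Atf4 and -0.47 to 0.11 for Atf3. For CK666, limma on TPM gave 0.40 for Atf3, -0.03 for Eif2s3x and -0.022 for Calr, RLE size factors -0.009 for Eif2s3x and DESeq2 -0.01 for Eif2s3x. Atf3, at 3.48 to 10.5 CPM, and Nupr1, down to 2.80 CPM, rest on the fewest counts.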
